A study of Mus musculus with 8 samples.

Results

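The apolipoprotein L genes *Apol10a*, *Apol7c*, *Apol9a* and *Apol9b* were followed in the distal colon of wild-type (WT) and *Hsf1* null mice. They are 4 of the 15859 genes in the count table. The genes were chosen by name because they lie in 1 chromosome 15 cluster about 1 Mb from *Hsf1*, and with the day 15 difference between the genotypes already known. Levels at day 15 are therefore given as a description. For these genes a p between the genotypes is given only in the untreated mice. Their libraries are separate from those of day 15, but the spread behind that p was estimated from all 8 mice. The p is thus not fully separate from the day 15 libraries. Other results of these data were also known when the genes were chosen.

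RNA-seq of polyA RNA was performed on 8 male mice of a mixed BALB/c x 129SvEV background, 2 in each of 4 groups. WT day 0 and *Hsf1* null day 0 mice were untreated. WT day 15 and *Hsf1* null day 15 mice received 10 mg/kg azoxymethane (AOM), a colon carcinogen, and 7 days later were put for 5 days on drinking water with 1.5% dextran sulfate sodium (DSS), an agent that damages the epithelial lining. All mice are labelled as 10 weeks old, and the day of sacrifice differs between the sources (day 15 in the study, directly after DSS in the labelled protocol).

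The null allele is carried in the germ line, so it is present in all cell types of the colon and not in a chosen one. Every null mouse also carried the chromosome 15 DNA linked to the null allele. Loss of *Hsf1* and any *Apol* alleles inherited with it cannot be told apart in these 8 mice. The labels do not say whether mice with the same replicate number share a litter or a day, so mice are numbered 1 and 2 within a group as names only.

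*Hsf1*, which encodes the transcription factor that induces heat shock proteins, was measured first as a check of the labels. It stood at 40.5 and 36.5 CPM (the count scaled by library size) in the WT day 0 mice and at 50.4 and 45.9 CPM in the WT day 15 mice. In the null mice it stood at 14.0 and 11.9 CPM at day 0 and at 13.5 and 9.09 CPM at day 15, so every null mouse was below every WT mouse. The log2 fold change was -1.57 (SE 0.30, n = 2 against 2) at day 0 and -2.10 (SE 0.30) at day 15, with adjusted p = 0.775 and 0.0137 in edgeR's quasi-likelihood test. DESeq2 gave an adjusted p of 0.0333 at day 0. The day 15 call was lost in edgeR without either *Hsf1* null day 0 mouse or without WT day 15 mouse 2, with adjusted p from 0.0522 to 0.0626, and when only the day 15 groups were fitted (adjusted p = 0.0692). The null libraries still held 33 to 170 reads on the gene, and a table of counts per gene does not show which exons they came from.

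Total counts per library ran from 2553348 to 12440257, and the lowest totals were those of mouse 2 in both day 0 groups. The tissue label was checked against fixed marker lists. The 10 colon epithelium markers summed to between 10037 and 23662 CPM per mouse and the 7 goblet cell markers to between 6964 and 38758 CPM.

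Apolipoprotein L proteins are a family of lipid-binding proteins found inside cells or secreted, and the best known is human APOL1, the component of serum that lyses trypanosomes. In mice the family has expanded into a cluster of closely related copies. Several members are induced by interferons, *Apol9a* and *Apol9b* among them, and *Apol7c* is known from dendritic cells, where it helps to rupture phagosomes that hold antigen.

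In the GENCODE M21 annotation of GRCm38 (mm10), 13 genes named *Apol* with a number lie on chromosome 15, all past the 3′ end of *Hsf1* at chr15:76477422-76501913 on the forward strand. *Apol9a* (ENSMUSG00000057346) spans chr15:77403789-77411135 on the reverse strand. *Apol10a* (ENSMUSG00000050982) spans chr15:77477047-77491069 on the forward strand. *Apol7c* (ENSMUSG00000044309) spans chr15:77524852-77533316 on the reverse strand, and *Apol9b* (ENSMUSG00000068246) spans chr15:77729039-77736382 on the forward strand. All 4 code for protein, and they lie 0.902, 0.975, 1.02 and 1.23 Mb from the end of *Hsf1* in that order.

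The 250 bases before the annotated start of each gene are shown because they hold the same interferon-type element close to the start. The sequences are from RefSeq (GRCm38.p6), read 5′ to 3′ on the strand of the gene, and for *Apol9a* and *Apol9b* the first of 2 listed starts was used, before which the GENCODE transcript already begins. Capitals mark matches to the core of the interferon-stimulated response element (ISRE, which is GAAA, then 2 bases of any kind, then GAAA, on either strand) and to the gamma-activated sequence (TTCNNNGAA, which is its own reverse complement).

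Apol10a, chr15:77476797-77477046, forward strand: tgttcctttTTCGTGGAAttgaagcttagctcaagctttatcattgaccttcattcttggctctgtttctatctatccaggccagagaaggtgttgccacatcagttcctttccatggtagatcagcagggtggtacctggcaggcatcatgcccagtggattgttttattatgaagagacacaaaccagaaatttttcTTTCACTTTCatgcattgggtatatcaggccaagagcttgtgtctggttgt
Apol7c, chr15:77533316-77533565, reverse strand: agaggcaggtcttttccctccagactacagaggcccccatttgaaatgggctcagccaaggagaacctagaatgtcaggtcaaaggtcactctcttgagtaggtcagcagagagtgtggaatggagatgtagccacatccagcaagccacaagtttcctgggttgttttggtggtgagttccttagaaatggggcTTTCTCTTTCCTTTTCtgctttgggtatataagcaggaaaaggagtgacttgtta
Apol9a, chr15:77411081-77411330, reverse strand: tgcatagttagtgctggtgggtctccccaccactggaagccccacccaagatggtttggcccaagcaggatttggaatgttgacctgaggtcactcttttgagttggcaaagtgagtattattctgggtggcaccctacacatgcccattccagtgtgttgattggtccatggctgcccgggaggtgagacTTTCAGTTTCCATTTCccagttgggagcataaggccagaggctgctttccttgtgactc
Apol9b, chr15:77728822-77729071, forward strand: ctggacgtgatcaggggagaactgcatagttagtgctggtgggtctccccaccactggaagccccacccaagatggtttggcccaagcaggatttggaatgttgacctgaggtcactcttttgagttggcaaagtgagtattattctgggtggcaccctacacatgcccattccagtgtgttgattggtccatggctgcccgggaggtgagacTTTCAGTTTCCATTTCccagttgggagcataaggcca

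The ISRE core was found in all 4 windows, and in 978 of 32851 promoter windows of the same length (2.98%). In *Apol10a* there was 1 match, at positions -51 to -42 counted from the annotated start. *Apol7c* held a pair of overlapping matches at -55 to -46 and -49 to -40, *Apol9a* a pair at -59 to -50 and -53 to -44, and *Apol9b* a pair at -37 to -28 and -31 to -22. The core was not particular to these genes within the cluster, since it was also found in *Apol11a* and *Apol11b* (-50 to -41 in both) and in *Apol7e* (-36 to -27 and -30 to -21), which were not in the count table. The windows of *Apol7a*, *Apol7b*, *Apol8* and *Apol10b* held no match.

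The gamma-activated sequence was found only in *Apol10a* among the 4, at -241 to -233, and in 7.02% of all windows. *Apol11a* and *Apol11b* held it at the same positions. Heat shock elements, the binding sites of HSF1, were searched for as GAANNTTC, as TTCNNGAA and as the longer form of GAANNTTC followed by 2 bases of any kind and GAA. These letters were in 6.69%, 7.17% and 0.466% of all windows and in none of the 4. A match describes letters only, and binding was not measured.

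Reads of these genes are not fully separable, which limits every value below. The coding sequences of *Apol9a* and *Apol9b* are 98.5% identical, with 14 differing bases of 933. Of all stretches of 50 bases in the *Apol9a* transcript, 57.5% occur in another *Apol* transcript, and 51.4% of those of *Apol9b* do. *Apol10a* and *Apol7c* are more distinct, with 16.9% and 12.2% of such stretches shared. The closest coding sequence to *Apol7c* was *Apol7a* (90.8% identity), and the closest to *Apol10a* was *Apol11a* (80.9%), which was not in the count table. How the authors' counting treated reads that fit several genes is not given in the sources used here, so the split between *Apol9a* and *Apol9b* is uncertain and their sum is given as well.

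*Apol7c* was read in every null mouse and in no WT mouse. The counts were 0 and 0 in WT day 0, 21 and 10 in *Hsf1* null day 0, 0 and 0 in WT day 15, and 17 and 45 in *Hsf1* null day 15. In CPM the null mice stood at 1.72 and 3.59 at day 0 and at 2.64 and 6.01 at day 15. A count of 0 allows up to 3 counts, which is 0.294 and 1.19 CPM in the WT day 0 libraries and 0.261 and 0.317 CPM in the WT day 15 libraries. These limits cover counting error only.

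At day 0, *Apol7c* was at least 3.58-fold higher in *Hsf1* null mice than in WT mice, computed against 3 counts per WT library. This bound sets the null mean against the mean WT limit, so it does not cover the spread between mice. Both null mice were above both WT mice, as in 18.7% of all genes. In edgeR's quasi-likelihood test the unadjusted p was 0.00216 and the adjusted p over all genes tested was 0.775, so the difference did not pass. The adjusted p ran from 0.150, in DESeq2, to 1 over the alternatives tried. At day 15 *Apol7c* was at least 15-fold higher in the null mice.

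Among the 14371 genes tested, *Apol7c* alone had 0 reads in all 4 WT libraries and reads in all 4 null libraries, and no gene showed the reverse. The day 15 libraries, on which the genes were chosen, are part of that description. At day 0 alone, 2 genes had 0 reads in both WT libraries and reads in both null libraries, and 7 showed the reverse. With at least 10 reads in both libraries of the other genotype, the counts were 2 and 0. That cut equals the lower null day 0 count of both genes that pass it, so these counts are a description only. The 2 genes were *Apol7c* and *Psca*, a surface antigen gene on the other side of *Hsf1* at chr15:74714839-74717069. *Psca* had 7 reads in 1 of the WT day 15 libraries, whereas *Apol7c* had none.

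*Apol10a* was at the limit of detection in WT mice at both days. It had 3 and 0 counts in WT day 0, 13 and 4 in *Hsf1* null day 0, 0 and 0 in WT day 15, and 152 and 74 in *Hsf1* null day 15. The null levels were 1.07 and 1.44 CPM at day 0 and 23.6 and 9.89 CPM at day 15. Every null mouse was above every WT mouse, as for *Apol7c*. Of all genes tested, 3.06% had all 4 null mice above all 4 WT mice, and 2.60% had them below.

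At day 0 *Apol10a* had 17 reads in the null and 3 in the WT libraries together, a ratio of 4.82 after scaling by library size (95% exact interval 1.39 to 25.7, which covers counting error only). The null levels lay close to the 1.19 CPM that 3 counts make in the shallower WT library, so a difference of that size is at the edge of what the depth can show. The fitted log2 fold change of 2.33 was 0.95 with counts thinned to the smallest library. Without WT day 0 mouse 1 the WT level is 0, and the fitted value of 6.17 then depends on the prior count. Without any other single mouse it was 1.97 to 2.59. EdgeR gave an unadjusted p of 0.0413 and an adjusted p of 0.775, which did not pass. At day 15 *Apol10a* was at least 57.9-fold higher in the null mice. Both bounds are on the comparison the genes were chosen on.

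*Apol9a* differed widely between mice of a group, except in *Hsf1* null day 0. Its level was 6.17 and 0.397 CPM in WT day 0, 2.13 and 1.80 CPM in *Hsf1* null day 0, 1.83 and 20.8 CPM in WT day 15, and 25.4 and 10.8 CPM in *Hsf1* null day 15. The value of 0.397 CPM is 1 read. WT and null mice overlapped at both days, and of the WT day 15 mice, mouse 1 lay below both null day 15 mice and mouse 2 between them.

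*Apol9b* followed the same mice. Its level was 2.16 and 0.397 CPM in WT day 0, 0.985 and 0.359 CPM in *Hsf1* null day 0, 1.04 and 16.7 CPM in WT day 15, and 12.1 and 5.61 CPM in *Hsf1* null day 15. At day 15 the WT mice held both the lowest and the highest value. The sum of *Apol9a* and *Apol9b* was 2.87 and 37.5 CPM in WT day 15 and 37.5 and 16.4 CPM in *Hsf1* null day 15.

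The log2 fold change between the genotypes at day 0 was -0.94 (SE 1.15, 95% interval -3.50 to 1.62) for *Apol9a* and -0.94 (SE 1.29, interval -3.82 to 1.93) for *Apol9b*, with adjusted p = 0.910 and 0.929 in edgeR. The intervals are wide enough to hold a several-fold change in either direction. Without WT day 0 mouse 1 the direction turned, to 2.30 and 0.98, and without any other single mouse the values lay between -1.60 and -0.86 for *Apol9a* and between -2.06 and -0.64 for *Apol9b*. At day 15 it was 0.68 (SE 0.97) for *Apol9a* and 0.00 (SE 0.97) for *Apol9b*. Both values rest on single WT mice. Without WT day 15 mouse 2 they were 3.30 and 3.06, and without WT day 15 mouse 1 they were -0.20 and -0.92.

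**Figure D1:**
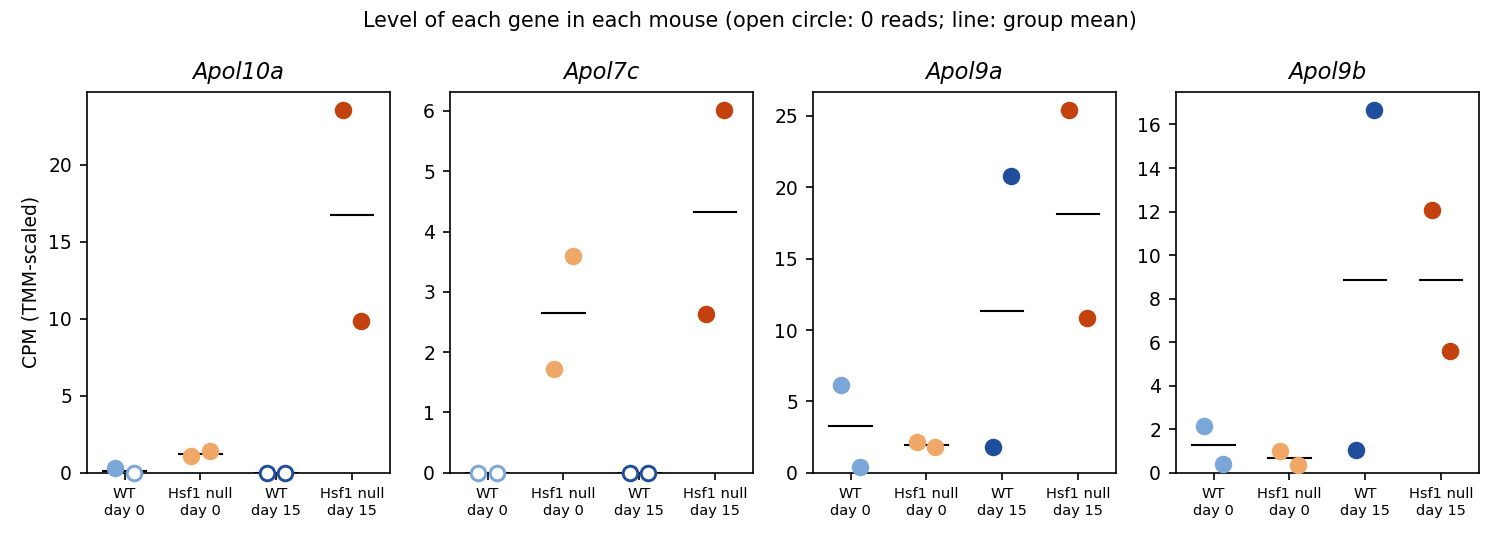
Level of each of the 4 genes in each mouse, in TMM-scaled CPM on a linear axis that starts at 0, with a separate axis per gene. Each point is 1 mouse, open points have 0 reads, and the line is the mean of the 2 mice of a group. *Apol10a* and *Apol7c* are at or near 0 in all 4 WT mice, whereas *Apol9a* and *Apol9b* reach 20.8 and 16.7 CPM in 1 WT day 15 mouse.

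Of the 4 genes, none was called in the genotype comparison at day 0 by edgeR at an adjusted p below 0.05 with a log2 fold change beyond 1 in either direction. None of the 14371 genes tested was called there either (0%), and 904 of them (6.29%) had an unadjusted p under 0.05. DESeq2 called 18 genes (0.125%) and none of the 4. At day 15 the thresholds were passed by 2 of the 4, *Apol10a* and *Apol7c*, both higher, beside 3.17% of all genes (1.91% higher, 1.25% lower). This count only restates how the genes were chosen. It was 0 without either *Hsf1* null day 0 mouse, and 1 without either WT day 15 mouse or without *Hsf1* null day 15 mouse 1. The share of all genes was 0.0835% without either *Hsf1* null day 0 mouse, 2.4% and 0.132% without WT day 15 mouse 1 and mouse 2, and 0.209% without null day 15 mouse 1. All 4 genes passed the filter of a mean normalized count above 5, *Apol10a* and *Apol7c* through the null libraries. Their day 15 reads alone gave a mean over the 8 libraries of 28.4 and 7.27, so the day 0 reads did not decide that they were tested.

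The groups also differed by whether they overlapped. At day 0, *Apol10a* and *Apol7c* were higher in both null mice than in both WT mice, as were 18.7% of all genes (18.4% lower), and at day 15 the same held for these genes and for 26.2% of all genes (28.6% lower). *Apol9a* and *Apol9b* overlapped between the genotypes at both days.

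The change from day 0 to day 15 shares the day 15 libraries with the comparison that chose the genes, and is described without a p. In *Hsf1* null mice *Apol10a* went from a mean of 1.25 to 16.7 CPM, a log2 fold change of 3.79 (SE 0.70). *Apol7c* had a log2 fold change of 0.80 (SE 0.77) in the same mice, with overlapping groups. It was 0.27 and 1.33 without *Hsf1* null day 0 mouse 1 and mouse 2, and 1.28 and 0.087 without *Hsf1* null day 15 mouse 1 and mouse 2. *Apol9a* and *Apol9b* were higher in both treated null mice than in both untreated ones, with log2 fold changes of 3.16 (SE 1.13) and 3.44 (SE 1.21). For reference, 11.8% of all genes passed the thresholds in null mice (5.30% higher, 6.48% lower). The choice of *Apol10a* for its level in treated null mice partly fixes its rise, so its count beside that share is not read. Of all genes, 31.0% had both treated null mice above both untreated ones and 30.3% had them below.

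In WT mice the corresponding log2 fold changes were 1.53 (SE 1.04) for *Apol9a* and 2.50 (SE 1.12) for *Apol9b*, with overlapping groups. The share of genes with groups that did not overlap was 31.0% higher and 31.5% lower. None of the 4 passed the thresholds, beside 7.74% of all genes (3.47% higher, 4.27% lower). *Apol10a* and *Apol7c* gave no fold in WT mice, since both groups were at or under 3 counts per library. No member passed for the difference between the genotypes in this change, beside 0.00696% of all genes, 1 gene that was lower. For *Apol9a* the WT value was 4.77 without WT day 0 mouse 1 and -1.07 without WT day 15 mouse 2. For *Apol9b* it was 3.40 and passed without WT day 15 mouse 1, and it was -0.55 without WT day 15 mouse 2.

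Levels of different genes were set side by side per kb of the main transcript. In *Hsf1* null day 15 mice the mean was 11.8 CPM per kb for *Apol9a*, 5.63 for *Apol9b*, 5.51 for *Apol10a* and 2.10 for *Apol7c*. In WT day 15 mice it was 7.39 CPM per kb for *Apol9a* and 5.63 for *Apol9b*. In untreated null mice *Apol7c* (1.29 CPM per kb) and *Apol9a* (1.28) were level, and *Apol9b* (0.427) and *Apol10a* (0.413) were below them. Neighbours in each order overlapped over the mice of the group, except *Apol10a* and *Apol7c* in treated null mice and *Apol9a* and *Apol9b* in untreated null mice.

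The other *Apol* genes in the count table were *Apol6*, *Apol7a* and *Apol10b*. *Apol7a*, the closest relative of *Apol7c*, was read in all 8 mice. Its level was 3.13 and 5.16 CPM in WT day 0, 1.81 and 1.44 CPM in *Hsf1* null day 0, 3.13 and 7.18 CPM in WT day 15, and 13.3 and 9.76 CPM in *Hsf1* null day 15. The untreated null mice were below both untreated WT mice, and the treated null mice above both treated WT mice.

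Between the genotypes *Apol7a* did not pass at day 0 (log2 fold change -1.23, SE 0.61, edgeR adjusted p = 0.794) or at day 15 (1.17, SE 0.52, edgeR adjusted p = 0.210). It rose from day 0 to day 15 in *Hsf1* null mice, with a log2 fold change of 2.77 (SE 0.59) and an edgeR adjusted p of 0.0214. Leaving out any 1 of the 4 null mice ended that call, with adjusted p from 0.0526 to 0.167. In WT mice the change was 0.37 (SE 0.55), and the difference between the genotypes was 2.4 with an edgeR adjusted p of 0.456.

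*Apol6*, which stands apart between *Hsf1* and the cluster and shares no stretch of 50 bases with the others, was at 6.07 and 7.14 CPM in WT day 0 and at 3.04 and 1.44 CPM in *Hsf1* null day 0. It was at 2.87 and 15 CPM in WT day 15 and at 3.41 and 8.55 CPM in *Hsf1* null day 15. *Apol10b* was between 0.164 and 2.17 CPM in all mice, on 1 to 14 reads. Neither passed in a genotype comparison, with log2 fold changes of -1.42 (SE 0.81) and -0.32 (SE 1.22) at day 0 and of -0.56 (SE 0.73) and 0.70 (SE 0.92) at day 15.

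All reads on the 7 genes summed to 18.4 and 13.5 CPM in WT day 0, 10.9 and 11.1 CPM in *Hsf1* null day 0, 9.30 and 61.1 CPM in WT day 15, and 82.6 and 51.6 CPM in *Hsf1* null day 15. The total of 1 WT day 15 mouse was thus in the range of the null day 15 mice, while its makeup differed. *Apol10a* made 28.5% and 19.2% of the *Apol* reads in the treated null mice, and 9.77% and 12.9% in the untreated ones. *Apol7c* made 15.8% and 32.3% of them in the untreated null mice and 3.19% and 11.7% in the treated ones. *Apold1*, which has a similar name and lies outside the cluster, was at 2 and 7 reads in *Hsf1* null day 15 and at 10 to 54 reads in the other mice.

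**Figure D2:**
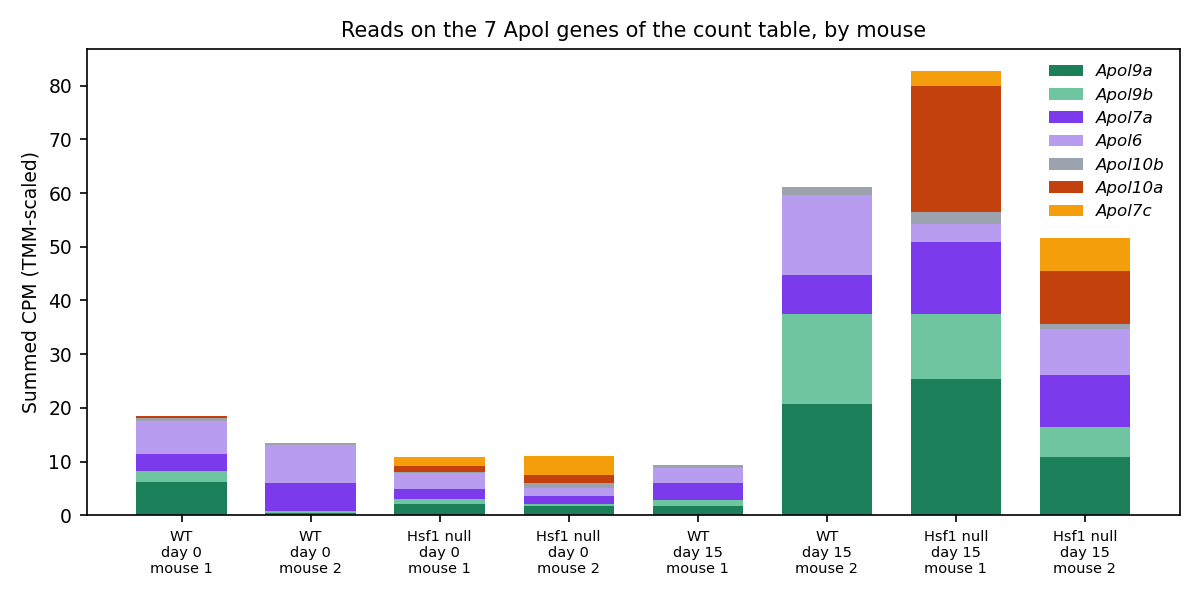
Summed TMM-scaled CPM of the 7 *Apol* genes in the count table, 1 bar per mouse, stacked by gene on a linear axis from 0. The bars of WT day 15 mouse 2 (61.1 CPM) and *Hsf1* null day 15 mouse 2 (51.6 CPM) are close in height, and only the null bars hold the *Apol10a* and *Apol7c* segments apart from 3 *Apol10a* reads in 1 WT day 0 mouse.

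The share of *Apol9a* in the reads of *Apol9a* plus *Apol9b* was 55.5% in WT day 15 mouse 2 (95% Wilson interval 50.3 to 60.6, 355 reads). It was 67.8% (61.6 to 73.3, 242 reads) and 65.9% (57.1 to 73.6, 123 reads) in the *Hsf1* null day 15 mice. In WT day 0 mouse 1 it was 74.1% (63.9 to 82.2, 85 reads), and in the other mice it ran from 50% to 83.3% on 2 to 38 reads. The interval of WT day 15 mouse 2 lay below those of WT day 0 mouse 1 and *Hsf1* null day 15 mouse 1, and overlapped the rest. The intervals cover counting error only, and the assignment of reads between these genes is uncertain.

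Since *Apol9a* and *Apol9b* are interferon-induced and all 4 promoter windows hold the ISRE core, a list of 77 interferon-induced genes was set beside them. The median log2 level of the list, centred on its mean over the 8 mice, was 0.34 and -0.40 in WT day 0, -0.57 and -0.40 in *Hsf1* null day 0, -0.53 and 1.47 in WT day 15, and 0.28 and 0.03 in *Hsf1* null day 15. The highest mouse for the list, WT day 15 mouse 2, was the highest for *Apol9b* and had 0 reads on *Apol10a* and *Apol7c*.

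No gene of the list was called between the genotypes at day 0 or day 15 by edgeR. At day 0, 1 of the 77 had an unadjusted p under 0.05, lower in the null mice, beside 6.29% of all genes. At day 15 there were 18, 1 higher and 17 lower, beside 23.2% of all genes in either direction. The median log2 fold change of the list was -0.58 at day 0 and -0.59 at day 15, beside -0.01 and -0.04 over all genes. Of the 77 genes, 8 were higher in the null mice at day 0 and 22 at day 15. These medians rest partly on single WT mice. In the centred list level, WT day 15 mouse 1 (-0.53) lay below both null day 15 mice. WT day 0 mouse 2 was level with *Hsf1* null day 0 mouse 2 (both -0.40). DESeq2 called none at day 0 and 4 at day 15, all lower in the null mice, beside 8.41% of all genes at day 15, and edgeR called 14 at day 15 without WT day 15 mouse 1, beside 2.4% of all genes in that fit. The largest differences at day 15 were in *Tgtp1* (-3.32), *Cxcl9* (-3.26) and *Tgtp2* (-3.17) on the lower side and in *Ifit3b* (1.03), *Ifi27* (0.86) and *Rsad2* (0.76) on the higher side, none of them called. Those on the lower side rest on WT day 15 mouse 2, at 10.4, 97.8 and 10.3 CPM in that order. WT day 15 mouse 1 was at 0, 2.87 and 0.348 CPM, below both null day 15 mice in each gene. *Isg15* had a log2 fold change of -0.42, *Irf7* of -0.12 and *Ifit1* of 0.46, also not called.

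From day 0 to day 15 the list had 6 genes called higher in *Hsf1* null mice, *Lgals3bp*, *Oas2*, *Psmb9*, *Tap1*, *Tap2* and *Tapbp*, of which the last 4 belong to antigen processing. In WT mice 1 gene, *Lgals3bp*, was called. Beside these counts, 5.30% of all genes were called higher in null mice and 3.47% in WT mice. The counts depended on single mice, and so did those over all genes. In WT mice 20 genes of the list were called without WT day 15 mouse 1, beside 5.47% of all genes. None was called without WT day 15 mouse 2 (0.786% of all genes) or WT day 0 mouse 2 (0.988%). The null count was 0 without *Hsf1* null day 0 mouse 2, where edgeR called none of all 14371 genes (0%). It was 0 without null day 15 mouse 1 (3.36% of all genes) and 1 without null day 15 mouse 2 (2.42%). It was 16 and 15 without WT day 15 mouse 1 and mouse 2 (10.6% and 10.9%).

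Across the 8 mice, *Apol9a* and *Apol9b* correlated more with the list than *Apol10a* and *Apol7c* did. The Pearson correlation of log2(CPM + 0.5) with a gene of the list had a median of 0.63 for *Apol9a* and 0.71 for *Apol9b*, and of -0.01 for *Apol10a* and -0.18 for *Apol7c*. It was above 0.8 for 21 of 77 genes (27.3%) with *Apol9a* and 25 (32.5%) with *Apol9b*, beside 1.65% and 2.96% of the other genes tested. With *Apol10a* and *Apol7c* it was above 0.8 for no gene of the list, beside 3.12% and 1.95% of the others. These are descriptions over 8 mice that fall into 4 groups and share their libraries.

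**Figure D3:**
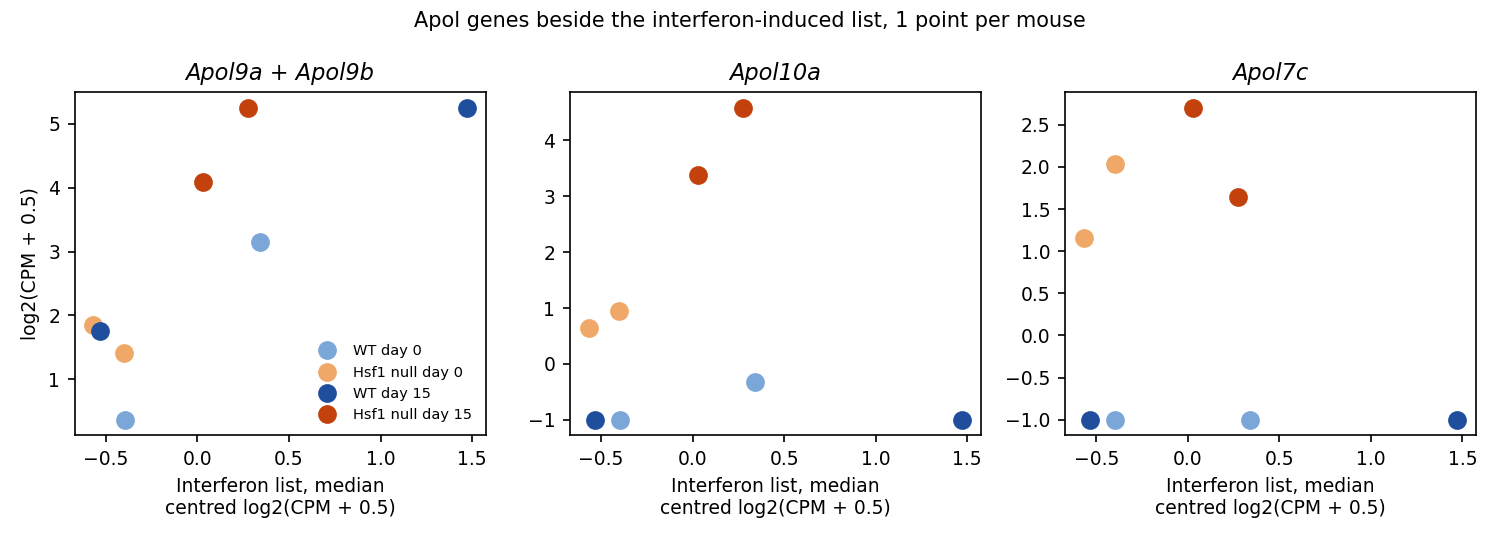
Level of *Apol9a* plus *Apol9b*, *Apol10a* and *Apol7c* as log2(CPM + 0.5) against the median centred log2 level of 77 interferon-induced genes, 1 point per mouse coloured by group. WT day 15 mouse 2, at 1.47 on the horizontal axis, is among the highest for *Apol9a* plus *Apol9b* and at the bottom for the other genes.

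By the same measure, the genes most like each of the 4 were named. *Apol9a* was most like *Dhx58* (r = 0.98), which encodes a receptor for viral RNA, *Gm19897* (0.96) and *Apol9b* (0.96). *Apol9b* was most like *Adar* (0.98), an RNA editing enzyme, *Swap70* (0.97) and *Oas3* (0.97), a sensor of double-stranded RNA. *Apol10a* was most like *6330408A02Rik* (0.98), *Spop* (0.97) and *Polr1c* (0.97), and *Apol7c* was most like *Clcn3* (0.997), *Gcc2* (0.98) and *Smarca5* (0.97). None of the last 6 lies on chromosome 15. With so many genes and 8 mice, high values are found for any pattern.

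Among the 4 genes, *Apol10a* and *Apol7c* had r = 0.83 and *Apol9a* and *Apol9b* had r = 0.96. Across these pairs r ran from 0.09, between *Apol7c* and *Apol9b*, to 0.55, between *Apol10a* and *Apol9a*.

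The genes around the cluster were examined to see whether the whole stretch of chromosome differed between the genotypes. The count table held 32 other genes from *Hsf1* to 500 kb past the cluster, of which 25 lie between *Hsf1* and the cluster, 1 inside it and 6 past it, and 30 could be tested. None was called between the genotypes at day 0 or day 15 by edgeR. At day 0 none had an unadjusted p under 0.05, the median log2 fold change was -0.16, and the range was -1.13 to 0.62. At day 15 there were 6 higher and 2 lower at that unadjusted p, beside 23.2% of all genes in either direction, with a median of 0.08 and a range of -1.28 to 1.56.

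The genes farthest from 0 at day 15 were *Adck5* (1.56, SE 0.38, edgeR adjusted p = 0.0574), *Gpt* (1.36, SE 0.33, edgeR adjusted p = 0.0549), *Zfp251* (-1.28, SE 0.45, edgeR adjusted p = 0.130) and *Ncf4* (-1.14, SE 0.50, edgeR adjusted p = 0.205). *Adck5* and *Gpt*, which encodes alanine aminotransferase, lie 0.074 and 0.194 Mb past *Hsf1*, far closer to it than the *Apol* cluster. DESeq2 called both, beside 8.41% of all genes at day 15. At day 0 the farthest were *Ncf4* (-1.13), *Lrrc24* (-0.85), *C030006K11Rik* (-0.69) and *Slc39a4* (-0.67), none called. Besides *Apol10a* and *Apol7c*, *Gpt* was the only tested gene of the stretch with all 4 null mice above all 4 WT mice. The same held for 3.06% of all genes tested. The bounds of at least 57.9-fold and 15-fold for *Apol10a* and *Apol7c* at day 15 were thus above the fold change of every neighbour, but these genes were chosen for that difference.

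**Figure D4:**
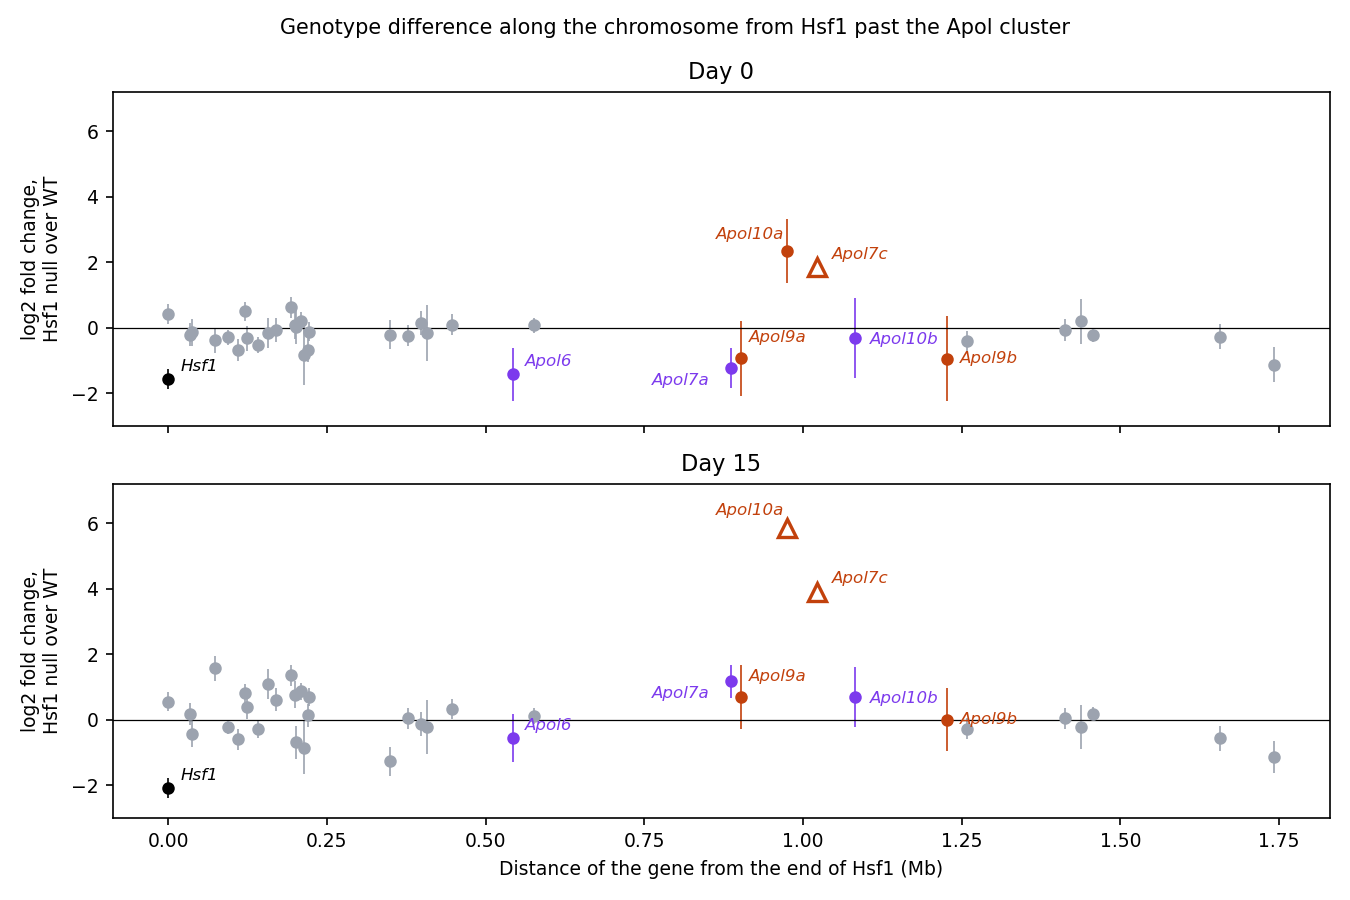
Log2 fold change of *Hsf1* null over WT mice at day 0 (upper) and day 15 (lower) against the distance in Mb from the end of *Hsf1*. Circles are fitted values with their standard error, and open triangles are lower bounds where both WT mice had 0 reads. *Hsf1* is black, the 4 genes orange, other *Apol* genes purple and flanking genes grey, which lie between -1.28 and 1.56.

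Bulk RNA-seq cannot tell fewer cells of a type from less RNA per cell, so the makeup of the tissue was compared through 12 fixed marker lists. At day 0 no marker of any list was called between the genotypes. At day 15, 4 of 7 neutrophil markers and 2 of 8 macrophage markers were called lower in the null mice. In the same comparison 3 of 7 goblet cell markers and 1 of 10 absorptive colonocyte markers were called higher. Of all genes, 1.25% were called lower and 1.91% higher, and without either *Hsf1* null day 0 mouse 12 genes in all were called. The other 8 lists, which covered colon epithelium, conventional and plasmacytoid dendritic cells, leukocytes, smooth muscle, fibroblasts, enteric neurons and glia, and squamous epithelium, had none.

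The conventional dendritic cell markers, set beside *Apol7c*, summed to 140 and 42.1 CPM in WT day 0, 47.8 and 37.4 CPM in *Hsf1* null day 0, 110 and 204 CPM in WT day 15, and 76.9 and 124 CPM in *Hsf1* null day 15, with 9 of 10 in the table. *Cd209a* was the marker that the table does not list. *Fscn1*, named after its values were seen, made 82.4 CPM of the sum in WT day 0 mouse 1. The part of dendritic cells in the level of *Apol7c* was not tested. The median log2 fold change of the list between the genotypes was -0.29 at day 0 and -0.70 at day 15.

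Markers of goblet cells summed to 6964 and 9133 CPM in WT day 15 and 38758 and 18682 CPM in *Hsf1* null day 15, with both null mice above both WT mice and mouse 1 the higher of them, as for *Apol10a*. The same order held for absorptive colonocyte markers (1826 and 3719 CPM in WT, 9354 and 4603 CPM in null) and colon epithelium markers (15359 and 16100 CPM in WT, 23662 and 20511 CPM in null). At day 0 the goblet cell markers summed to 18403 and 26680 CPM in WT mice and 26065 and 21480 CPM in null mice, and *Apol10a* was at or under 3 counts in those WT libraries. Neutrophil markers summed to 142 and 548 CPM in WT day 15 and to 7.75 and 35.0 CPM in *Hsf1* null day 15. *Ly6g* was not in the table. The part of these cell types in the day 15 levels was not tested.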

How the data were processed

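Reads were mapped by the authors with STAR (mm10), who deposited raw counts per gene symbol. The counting program and annotation are not given in the sources used here. The deposited table lists genes with at least 6 counts in some sample. A second deposited table holds a score per gene and mouse, the counts divided by DESeq2 size factors, which was only used as a check.

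Counts of all 8 mice were fitted as 4 groups in edgeR 4.0.16 (R 4.3.3, TMM, quasi-likelihood), with tests on the 14371 genes whose mean normalized count exceeded 5. Benjamini-Hochberg adjustment ran over all of them, and genes were called at adjusted p under 0.05 and absolute log2 fold change above 1, as in the study. Correlations used log2(CPM + 0.5). A fold against a group at 0 is a bound computed against 3 counts per library. It uses group means and does not cover the spread between mice. Replicates are separate mice, and 2 per group leave few degrees of freedom. The fit added a prior df of 5.97, estimated over all genes.

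Total counts were between 2553348 and 12440257. Positions came from GENCODE M21, which matched all but 136 of 15859 symbols. Members, gene lists, tests and named genes were chosen with earlier results of these data known. Named genes were *Hsf1*, every *Apol* gene and *Apold1* in the table, the flanking genes with the largest changes (4 per day), the 3 largest interferon-list changes in each direction with *Ifit1*, *Isg15* and *Irf7*, and the 3 genes most correlated with each member. *Psca*, and the interferon genes that were called, were named after their values were seen. A further gene of the rule is not reported here. Alternatives were DESeq2 1.42.0, its size factors in edgeR, other filters, a replicate block, only the groups compared, thinned counts, no fold threshold and leaving out each mouse.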

Additional observations from a re-analysis of the deposited data

Results flagged for a closer look

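*Adck5*, a neighbour of *Hsf1* that lies 0.074 Mb past it, differed in opposite directions from day 0 to day 15 in the genotypes. It was lower in both treated WT mice than in both untreated ones, with 37.8 and 47.2 CPM at day 0 and 26.3 and 28.1 CPM at day 15, and was higher in both treated *Hsf1* null mice (99.99 and 60.8 CPM) than in both untreated ones (43.6 and 19.4 CPM). The log2 change was -0.64 in WT mice, which did not pass (edgeR adjusted p = 0.311), and 1.32 in null mice (edgeR adjusted p = 0.0492). The call in null mice was lost without *Hsf1* null day 0 mouse 2, where edgeR called none of the 14371 genes. Other leave-outs and other settings were not examined for that call, which lies close to the threshold. The difference between the changes in the WT and null mice was 1.952 on the log2 scale. It did not pass the interaction test in edgeR (adjusted p = 0.400).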

How the results depend on the processing

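Of 452 values recomputed under an alternative setting, 406 kept their direction and their side of the threshold, 21 fell short of it, 11 passed it newly and 14 changed direction, all of the last when 1 mouse was left out. No member, flanking gene or interferon gene was called between the genotypes at day 0 under any alternative.

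The count of the 4 genes past the thresholds at day 15 between the genotypes, 2, was 0 with only the groups compared, 1 with counts thinned to the smallest library, and 0 to 2 when each mouse was left out. All these counts of the 4 genes rest on libraries that chose them and are descriptions. From day 0 to day 15 in null mice it was 1, became 2 in DESeq2, 3 with only the groups compared and 2 with thinned counts, and ran from 0 to 3 without single mice. In WT mice it ran from 0 to 1. For flanking genes at day 15 the count of 0 became 2 in DESeq2, and ran from 0 to 2 without single mice. For the interferon list at day 15 it was 4 in DESeq2 and 0 to 14 without single mice. For its change in WT mice it was 12 in DESeq2, 2 with DESeq2 size factors, 2 with no filter, 2 with filterByExpr, 3 with thinned counts and 0 to 20 without single mice. In null mice it was 11 in DESeq2, 16 with only the groups compared and 0 to 16 without single mice. Beside these, DESeq2 called 8.41% of all genes at day 15, 12.1% over time in WT mice and 15.3% in null mice. With only the groups compared the shares were 0.0418%, 6.49% and 9.79%, and with thinned counts 2.83%, 8.06% and 11.0%. The causes were not tested.

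Leaving out single mice turned the log2 fold change of *Apol9a* between the genotypes at day 0 (-1.60 to 2.30) and day 15 (-0.20 to 3.30), its change in WT mice (-1.07 to 4.77) and its interaction (-1.61 to 4.23). The same held for *Apol9b* at day 0 (-2.06 to 0.98) and day 15 (-0.92 to 3.06), in WT mice (-0.55 to 4.42) and for the interaction (-0.98 to 4.0). It also held for *Hsf1* in null mice (-0.52 to 0.049) and *Apol7a* in WT mice (-0.34 to 0.86). A lone mouse in a group was assumed to vary like the other groups.

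Whether mice with the same replicate number share a litter or day is not given. With the number as a replicate block the members called at day 15 stayed at 2 and 1 flanking gene (*Gpt*) was called, beside 2.39% of all genes. Deviations of same-numbered mice correlated between -0.30 and 0.17 across the 6 pairs of groups, over 0.1 in the 3 pairs without WT day 0. A crossed replicate block, added after seeing the data, in which the numbers of the WT day 0 mice were exchanged, called 2 of the 4 genes in null mice over time, 3 flanking genes at day 15, and 5 and 11 interferon genes over time in WT and null mice. It called 9.14% of all genes at day 15 (1314 against 455), 12.9% over time in WT mice and 16.0% in null mice. The depth of WT day 0 mouse 2, where 3 counts are 1.19 CPM, limits what day 0 can show for *Apol10a*.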
